A study of Mus musculus with 16 samples.

Results

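Of the 16 mouse hearts sequenced, the 8 that had undergone sham surgery are described here, 4 from mice given AAV9-Cardinal and 4 from mice given AAV9-GFP. They were chosen by their labels alone, as the sham hearts of both viruses. The comparison asks how far the cardiac transcriptome moved when Cardinal was overexpressed in the absence of pressure overload, and how large a difference the data could have missed. Male mice received the virus under the skin on postnatal day 1. Both viruses, AAV9-cTNT-CARDINAL and AAV9-cTNT-GFP, use the cardiac troponin T promoter, which is active in cardiomyocytes, so all 8 hearts had been exposed to a vector and to surgery without constriction, and no uninfected or unoperated heart was compared. The apex was taken 4 weeks after surgery, and its poly(A) RNA was read by single-end sequencing, 50 bases per read. The AAV9-GFP hearts after transverse aortic constriction (TAC) serve below only as a yardstick. They are compared with the same AAV9-GFP sham hearts, so the 2 comparisons share those mice and are not independent.

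Cardinal is a long noncoding RNA that lies next to Myocd, the gene for the cardiac and smooth muscle coactivator myocardin, and the study examined it as a ribosome-associated regulator of translation that binds DRG1, a GTP-binding protein. In an adult ventricle at rest, fatty acid oxidation supplies most of the fuel, the α-myosin gene Myh6 predominates in the mouse, and the natriuretic peptide genes and skeletal α-actin are held low. Pressure overload raises these fetal and stress genes together with genes of the extracellular matrix and lowers genes of oxidative metabolism. The sham comparison therefore bears on whether any of these programs differed before a load was applied.

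Cardinal is listed as Gm12295 (ENSMUSG00000085162) and is annotated on the minus strand of GRCm38 at chr11:65277654-65365798 as a lincRNA. The vector carries the mouse sequence, so vector-derived and endogenous reads were counted as 1 gene. The junction of exon 1 and exon 2 is printed here from the GENCODE M21 transcript of 3189 bases because it belongs to the RNA that was delivered. Exon 1 ends at position 65287271 and exon 2 begins at position 65287182, both counted on the minus strand. The capitals mark the exon 2 part.
Cardinal: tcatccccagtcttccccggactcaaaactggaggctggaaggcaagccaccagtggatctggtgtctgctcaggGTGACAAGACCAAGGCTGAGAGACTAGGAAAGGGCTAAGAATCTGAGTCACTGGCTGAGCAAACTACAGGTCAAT
None of the 50-base stretches of Gm12295 occurs in another annotated transcript.

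Cardinal was measured at 4.92, 4.80, 5.93 and 3.42 CPM (counts scaled to a common library size with TMM factors) in the AAV9-GFP sham mice 1 to 4. In the AAV9-Cardinal sham mice 1 to 4 it was measured at 40.0, 30.2, 26.2 and 27.6 CPM. The groups did not overlap, and every AAV9-Cardinal heart held several times the level of any AAV9-GFP heart. The group means were 4.77 ± 1.03 CPM and 31.0 ± 6.25 CPM (SD, 4 mice each). On the log2 scale the difference was 2.70 with a 95% interval from 1.66 to 3.74, or between 3.16-fold and 13.4-fold. The exact two-sided permutation test gave p = 0.029, the smallest that 4 mice against 4 allow. With edgeR's quasi-likelihood test over all 16 mice the Benjamini-Hochberg adjusted p was 0.35, and with the 8 sham mice alone it was 0.0010, with an interval from 2.30 to 3.10. A single mouse of the AAV9-Cardinal TAC group stood at 93.9 CPM while the other 3 of its group lay between 18.3 and 20.6 CPM, and without it the 16-mouse fit gave an adjusted p of 4.2e-05 by edgeR. The nearest gene upstream of Cardinal in the table with a level that could be tested, Map2k4, and Myocd on the other side did not pass the test. Myocd was measured at 42.7, 59.1, 49.6 and 54.9 CPM with AAV9-GFP and at 39.7, 51.3, 60.1 and 62.6 CPM with AAV9-Cardinal, and its 95% interval reached no further than 1.25-fold. Map2k4, a MAP kinase kinase, was bounded within 1.11-fold.

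**Figure D1:**
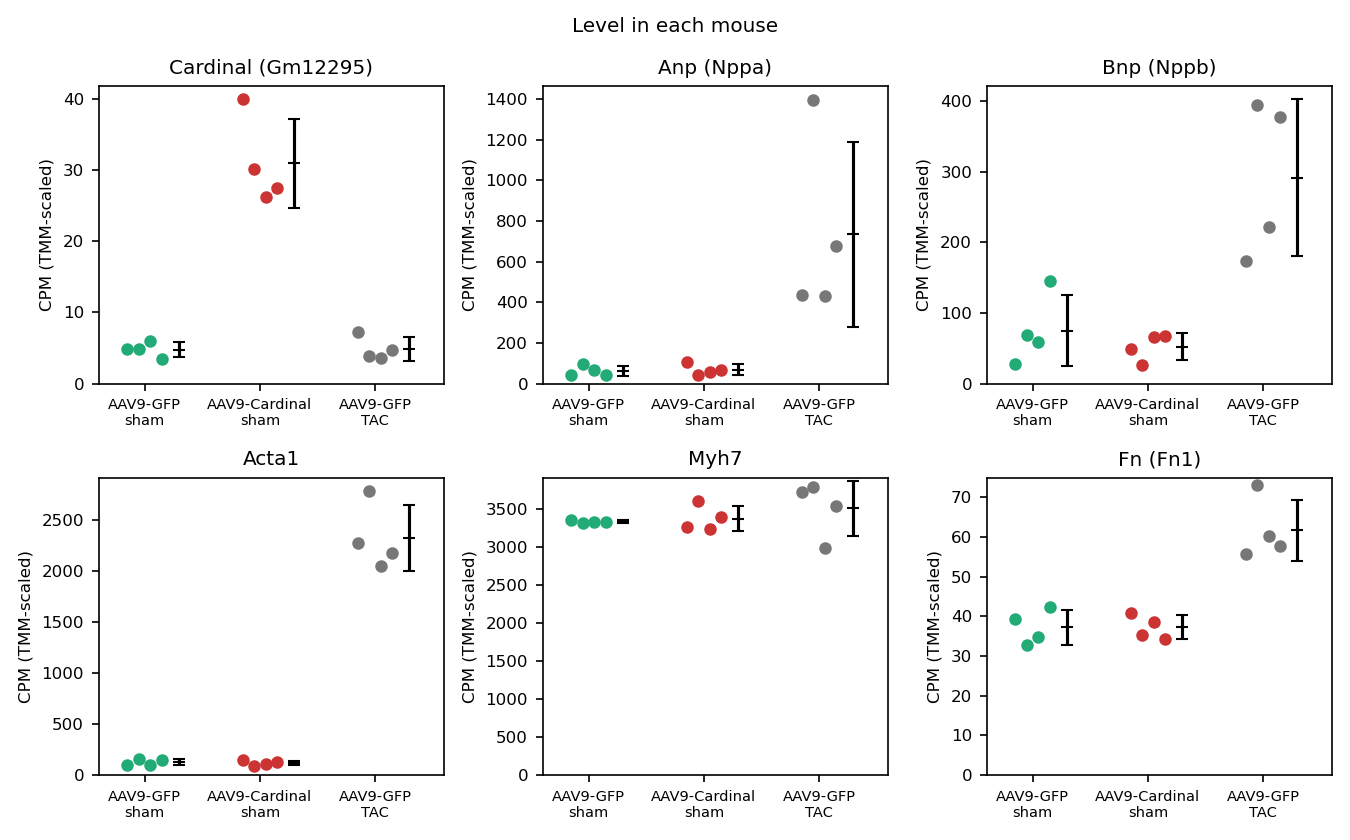
Level of 6 genes in each mouse (y axis, TMM-scaled CPM, from 0) in AAV9-GFP sham, AAV9-Cardinal sham and AAV9-GFP TAC hearts (4 mice each). Points are mice and bars are mean ± SD. Cardinal stands above 26 CPM in every AAV9-Cardinal sham heart, while the 5 cardiac genes overlap between the sham groups.

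Between 16441997 and 21802344 reads were counted per sham heart, with AAV9-Cardinal sham mouse 4 at the low end and the next lowest at 21525012. Genes of the mitochondrial genome took 32.8% to 34.0% of the counts with AAV9-GFP and 32.2% to 33.7% with AAV9-Cardinal. The labelled tissue had its markers: the 8 cardiomyocyte genes, such as Myh6, Tnnt2 and Actc1, summed to between 47397 and 50556 CPM with AAV9-GFP and to between 45625 and 50514 CPM with AAV9-Cardinal, and all 8 were bounded within 1.5-fold. The 6 atrial markers summed to at most 2.44 CPM in any sham heart. AAV9-GFP sham mouse 4 stood apart in its pericyte and smooth muscle markers, with a sum of 845 CPM against 619 to 652 CPM in its group and 603 to 657 CPM with AAV9-Cardinal. That sum was carried by the smooth muscle actin Acta2, at 219 CPM in this mouse and 39.7 to 49.1 CPM in the rest of its group. The 5 erythroid markers had no member bounded within 2-fold, with a median log2 fold change of -0.45 and sums of 423, 710, 670 and 852 CPM with AAV9-GFP and 415, 539, 544 and 434 CPM with AAV9-Cardinal, so that 3 of 4 AAV9-GFP hearts lay above every AAV9-Cardinal heart. Across the 12 marker lists (cardiomyocyte, atrial, fibroblast, endothelial, pericyte and smooth muscle, macrophage, lymphocyte, erythroid, adipocyte, Schwann and neuronal, mesothelial, skeletal muscle), the summed level overlapped between the groups in 12. Of the adipocyte markers, 0 were tested, and overlap of sums does not bound a difference. In whole tissue, fewer cells of a type and less RNA per cell cannot be told apart.

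The sham groups were close to each other over the whole transcriptome. Of 16857 genes tested, 2 passed an adjusted p of 0.05 with edgeR, Bub1b with a higher and Gm15459 with a lower value after AAV9-Cardinal, which is 0.0119% of the genes tested. An unadjusted p under 0.05 was reached by 437 genes (2.59%), 245 higher and 192 lower, and DESeq2 called 4 at its adjusted threshold. In 398 genes (2.36%) the 4 mice of one group did not overlap the 4 of the other. For comparison, the same fit called 2934 genes (17.4%) between AAV9-GFP TAC and AAV9-GFP sham hearts, 1431 higher (8.49%) and 1503 lower (8.92%). Over 14268 genes of at least 1 CPM, a pair of AAV9-GFP sham hearts differed by a root mean square of 0.37 to 0.41 on the log2 scale, a pair of AAV9-Cardinal sham hearts by 0.35 to 0.46, and a pair with 1 heart from each group by 0.33 to 0.46. A heart thus differed from a heart of the other virus about as much as from one of its own group.

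The size of an effect that could have been missed was bounded gene by gene with the 95% interval of the fold change. The whole interval lay inside a 2-fold change in either direction for 15212 of the 16857 genes (90.2%) and inside a 1.5-fold change for 12568 (74.6%). The median half-width was 0.26 on the log2 scale, or 1.20-fold. The median half-width narrowed with abundance. Among 2589 genes under 1 CPM, 55.5% were bounded within 2-fold and 19.3% within 1.5-fold. Among 6754 genes from 1 to 10 CPM, these shares were 94.0% and 72.3%. Among 6631 genes from 10 to 100 CPM they were 98.9% and 95.5%, and among 883 genes of 100 CPM and over they were 98.6% and 96.7%. For a cardiac gene above 10 CPM the data therefore placed a close bound in most cases, while for genes under 1 CPM a 2-fold difference often lay inside the interval at this depth. With the 8 sham mice fitted alone, 15148 of 16160 genes (93.7%) were bounded within 2-fold and 12685 (78.5%) within 1.5-fold.

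**Figure D2:**
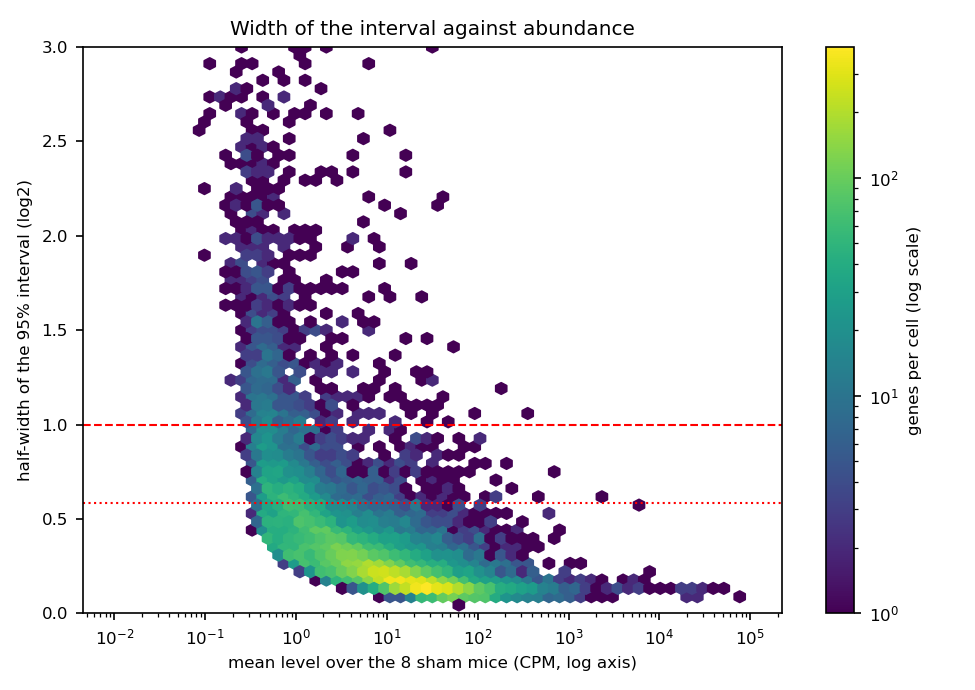
Half-width of the 95% interval of the sham log2 fold change (y axis, log2) against the mean level over the 8 sham mice (x axis, CPM, log axis) for the tested genes, with color for the number of genes in a cell of the grid; intervals wider than the y axis are not drawn. The dotted and dashed lines mark 1.5-fold and 2-fold, and the median half-width falls from 0.68 under 1 CPM to 0.13 at 100 CPM and over.

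Genes of the hypertrophic and fetal program showed no difference that passed the test, and their bounds were uneven. Of 13 tested members, 8 were bounded within 1.5-fold and 10 within 2-fold, and 0 were called in the sham comparison against 11 called higher and 0 lower with TAC. The TAC counts of this and the following lists stand beside 8.49% higher and 8.92% lower over all genes tested. Anp (Nppa), a natriuretic peptide gene, was measured at 42.5, 96.0, 65.0 and 41.6 CPM with AAV9-GFP and at 106, 44.2, 58.2 and 64.3 CPM with AAV9-Cardinal. These ranges overlapped almost wholly. The log2 fold change of Anp was 0.15 (-0.71 to 1.01), an interval that reached 2.02-fold, and 53.4% of its 50-base stretches are also part of the antisense gene Gm13054. After TAC, Anp stood at 431 to 1396 CPM. Bnp (Nppb), the second natriuretic peptide gene, was measured at 27.0, 68.7, 59.4 and 145 CPM with AAV9-GFP and at 49.5, 25.5, 65.7 and 67.7 CPM with AAV9-Cardinal. Its highest sham value came from AAV9-GFP sham mouse 4, the heart with the high smooth muscle markers. The log2 fold change of Bnp was -0.53 (-1.43 to 0.38), and this interval allowed a level up to 2.70-fold lower, the widest bound of the program, against a log2 fold change of 1.96 with TAC. Without AAV9-GFP sham mouse 4 the sham log2 fold change of Bnp was 0.01 and its interval reached 1.78-fold.

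The contractile members of the same program had closer bounds. Acta1, skeletal α-actin, was measured at 101, 153, 102 and 144 CPM with AAV9-GFP and at 144, 92.7, 112 and 123 CPM with AAV9-Cardinal. For Acta1 the log2 fold change was -0.08 (-0.57 to 0.41), at most 1.49-fold in either direction, where TAC gave 4.22 (3.73 to 4.70). Myh7, the β-myosin heavy chain that is abundant before birth, stood at 3315 to 3363 CPM with AAV9-GFP and at 3237 to 3606 CPM with AAV9-Cardinal. The log2 fold change of Myh7, 0.02, was bounded within 1.11-fold, and TAC gave 0.07 with an adjusted p of 0.46 by edgeR. Of the 50-base stretches of Myh7, 15.6% also occur in Myh6, which had a mean of 19200 CPM with AAV9-GFP sham. How many Myh7 counts came from Myh6 reads was not tested, so the Myh7 values may in part reflect Myh6. Uchl1, a deubiquitinating enzyme, had the lowest unadjusted p of the list at 0.032, with 5.20 to 6.57 CPM against 4.18 to 5.29 CPM and an adjusted p of 1.0 by edgeR.

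**Figure D3:**
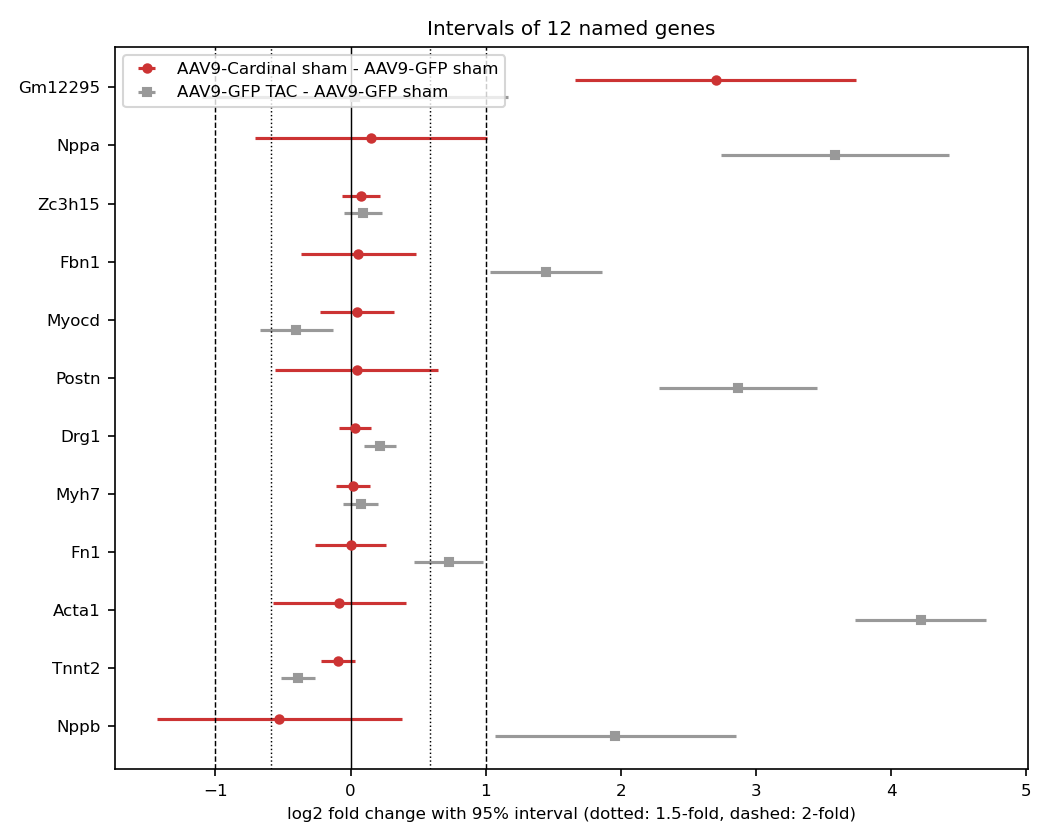
Log2 fold changes (points) with 95% intervals (bars) of 12 genes, for AAV9-Cardinal sham minus AAV9-GFP sham (circles) and AAV9-GFP TAC minus AAV9-GFP sham (squares), which share the AAV9-GFP sham mice. Dotted and dashed lines mark 1.5-fold and 2-fold. In the sham comparison the interval of Cardinal (Gm12295) runs from 1.66 to 3.74, those of the other genes span 0, and those of Anp and Bnp cross a dashed line.

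The sarcomere and calcium-handling genes were closely bounded. All 20 sarcomere genes tested were within 1.5-fold, with a median log2 fold change of -0.03 beside -0.0001 over all genes tested, and 0 were called, while 3 were called higher and 6 lower with TAC. Myh6 had means of 19200 ± 476 and 19870 ± 1171 CPM and was bounded within 1.14-fold, and 20.2% of its 50-base stretches occur in Myh7. Tnnt2, whose promoter drives both vectors, was measured at 4849, 5152, 5530 and 5269 CPM with AAV9-GFP and at 4607, 5055, 4834 and 5035 CPM with AAV9-Cardinal, and its interval reached 1.16-fold lower. All 17 calcium-handling genes tested were within 1.5-fold as well, with a median of -0.01. Atp2a2, the calcium pump of the sarcoplasmic reticulum and the most abundant of them, had means of 9750 ± 650 and 9772 ± 423 CPM, a log2 fold change of 0.003 (-0.14 to 0.15), against -0.55 with TAC. Among 18 ion channel and connexin genes, 16 were within 1.5-fold and 18 within 2-fold. The widest was Kcnh2, a potassium channel gene, at 1.69-fold. With TAC, 0 of these 18 were called higher and 8 lower, at a median log2 fold change of -0.37. Their sham intervals reached a median of 0.46 on the log2 scale, further than that TAC median. Of 22 genes of calcineurin signaling, CaMKII and cardiac transcription factors, 21 were within 1.5-fold and 22 within 2-fold.

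Fuel metabolism was bounded closely as well, except for Pdk4 and the regulator Ppargc1a. All 21 genes of fatty acid uptake and oxidation were within 1.5-fold, with a median log2 fold change of -0.01, while 19 of them were called lower with TAC at a median of -0.40. Acsl1, which activates long-chain fatty acids, had the largest log2 fold change of the list, at 649 to 766 CPM with AAV9-GFP and 716 to 844 CPM with AAV9-Cardinal. This change of 0.15 did not pass the test, with an adjusted p of 1.0 by edgeR. Of 29 genes of glycolysis, pyruvate oxidation and the TCA cycle, 28 were within 1.5-fold. The remaining gene, Pdk4, is a kinase that shuts down pyruvate dehydrogenase. It was measured at 141, 142, 153 and 164 CPM with AAV9-GFP and at 148, 104, 228 and 332 CPM with AAV9-Cardinal, so that the AAV9-Cardinal hearts enclosed the range of the others. The interval of Pdk4 reached 3.10-fold in the 16-mouse fit, at -0.77 to 1.63 on the log2 scale. In the 8 sham mice alone it ran from -0.23 to 1.09. Of 12 metabolic regulators, 11 were within 1.5-fold and 12 within 2-fold, and the widest bound was that of Ppargc1a, at 1.88-fold. Nrf1, a regulator of genes for the respiratory chain, was measured at 6.38, 6.39, 6.37 and 8.16 CPM with AAV9-GFP and at 5.87, 6.37, 5.77 and 5.19 CPM with AAV9-Cardinal, and had an adjusted p of 1.0 by edgeR. Its groups did not overlap, as for 1.16% of all genes in that direction, but the nearest mice stood at 6.370 and 6.367 CPM. Its log2 fold change was -0.23, and -0.13 without AAV9-GFP sham mouse 4.

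Nuclear genes of the respiratory chain had small differences of 1 sign, and none of them passed the test. Each of the 27 genes had a log2 fold change below 0, with a median of -0.07 and a range from -0.14 (Cox6c) to -0.01 (Ndufa9), and all 27 were within 1.5-fold. At an unadjusted p under 0.05, 2 were lower (7.41%, against 1.14% of all genes tested). Between the groups, 6 did not overlap, all lower (22.2%, against 1.16% of all genes). Ndufb8, a subunit of complex I, was measured at 269, 290, 308 and 274 CPM with AAV9-GFP and at 250, 268, 256 and 265 CPM with AAV9-Cardinal. The log2 fold change was -0.14 (-0.26 to -0.01) with an adjusted p of 1.0 by edgeR. Genes of a program are not independent of each other, since they share the same 8 libraries. The summed level of the list was 16679, 17441, 17820 and 17087 CPM in AAV9-GFP sham mice 1 to 4. With AAV9-Cardinal it was 16175, 16504, 16389 and 16758 CPM. The groups overlapped only through AAV9-GFP sham mouse 1 and AAV9-Cardinal sham mouse 4, and the other AAV9-GFP hearts lay above every AAV9-Cardinal heart. With TAC, 24 of the 27 were called lower, with a median of -0.28. The 13 mitochondrially encoded genes, the partners of these subunits, were all within 1.5-fold with a median of -0.04.

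The translational machinery, which the study linked to Cardinal, was closely bounded. All 79 cytosolic ribosomal protein genes were within 1.5-fold, with a widest bound of 1.29-fold (Rpl39). Their log2 fold changes were below 0 in 74 and above 0 in 5, with a median of -0.07 and a range from -0.17 (Rpl10) to 0.07 (Rpl3). The edgeR test called 0 of them. At an unadjusted p under 0.05, 6 were lower (7.59%, against 1.14% of all genes) and 0 higher, and 4 did not overlap, all lower (5.06%, against 1.16% of all genes). Rpl10, a protein of the large subunit, was measured at 59.7, 59.2, 56.8 and 58.2 CPM with AAV9-GFP and at 50.3, 54.3, 50.4 and 52.8 CPM with AAV9-Cardinal. For Rpl10 the log2 fold change was -0.17 (-0.26 to -0.08) with an unadjusted p of 0.0012 and an adjusted p of 1.0 by edgeR, and 33.5% of its 50-base stretches are shared with other genes, chiefly Rpl10-ps3. The summed level was 5621 to 5689 CPM with AAV9-GFP and 5222 to 5684 CPM with AAV9-Cardinal, where mouse 2 at 5684 CPM lay inside the range of the AAV9-GFP hearts. Of 38 translation factors, 37 were within 1.5-fold, all 38 within 2-fold, and 0 were called. Drg1 itself was measured at 23.8, 23.9, 22.2 and 22 CPM with AAV9-GFP and at 24.5, 22.1, 23.1 and 24.3 CPM with AAV9-Cardinal. Its mRNA had a log2 fold change of 0.03 (-0.09 to 0.15), at most 1.11-fold. Zc3h15, which encodes the DRG1 partner DFRP1, was bounded within 1.16-fold, with 19.4% of its 50-base stretches shared with other genes. These bounds concern mRNA, and neither protein nor translation was measured in these libraries.

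**Figure D4:**
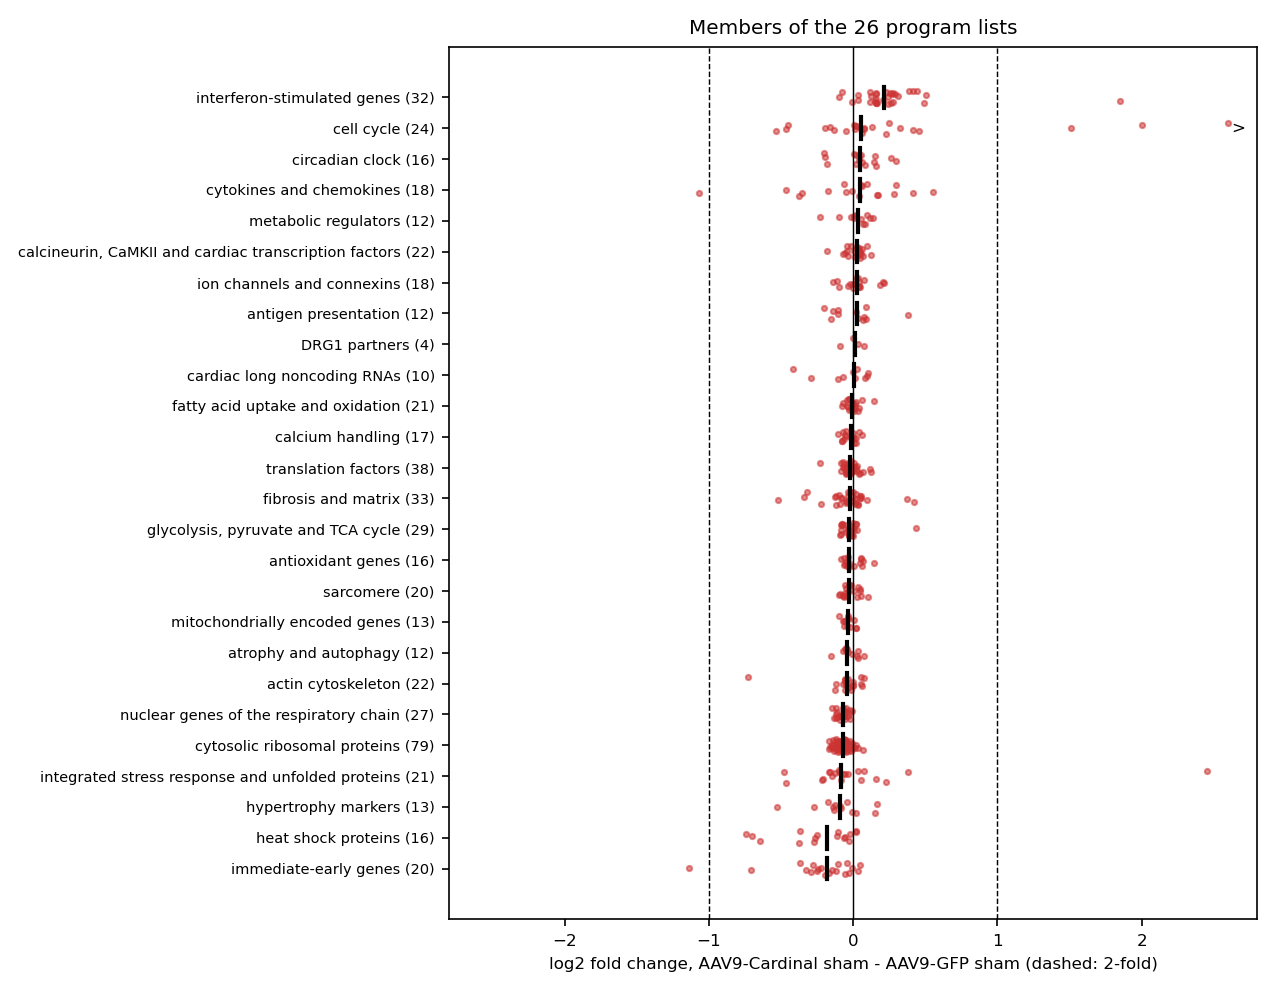
Log2 fold change between sham groups (x axis, AAV9-Cardinal minus AAV9-GFP) of each tested member (points) of the 26 program lists (rows, number tested in parentheses), ordered by the list median (black bar). The dashed lines mark 2-fold, and the arrow marks Bub1b, which lies beyond the axis. Medians run from -0.18 (immediate-early genes) to 0.22 (interferon-stimulated genes).

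Matrix genes did not differ by the test. Of 33 tested genes of fibrosis and matrix, 0 were called, 21 were within 1.5-fold and 27 within 2-fold, with a median log2 fold change of -0.02, while 30 were called higher with TAC at a median of 1.22. Fn (Fn1), fibronectin, was measured at 39.3, 32.7, 34.7 and 42.4 CPM with AAV9-GFP and at 40.8, 35.3, 38.6 and 34.3 CPM with AAV9-Cardinal, and was bounded within 1.20-fold. Postn, periostin of activated fibroblasts, was measured at 23.5, 23.9, 22.4 and 22.3 CPM with AAV9-GFP and at 26.0, 23.4, 25.2 and 20.1 CPM with AAV9-Cardinal. Its log2 fold change was 0.04, with an interval from -0.56 to 0.65 in the 16-mouse fit and from -0.14 to 0.22 in the 8 sham mice alone. Fbn1, fibrillin of elastic microfibrils, likewise had an interval from -0.37 to 0.48 with 16 mice and from -0.08 to 0.19 with 8. The 16-mouse fit takes its spread from TAC hearts too, and without AAV9-Cardinal TAC mouse 1 the outer bounds of Postn and Fbn1 were 0.35 and 0.31 on the log2 scale. Comp, a cartilage matrix protein at a mean of under 1 CPM in both sham groups, had the widest bound of the list, at 4.84-fold. Of 22 actin cytoskeleton genes, 20 were within 1.5-fold and 21 within 2-fold, and Acta2 alone was outside, with a bound of 3.11-fold that moved to a log2 value of 0.60 without AAV9-GFP sham mouse 4.

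Interferon-stimulated genes were the program with the highest median, again without a call. Of 32 tested members, 29 had a log2 fold change above 0 and 3 below, with a median of 0.22, and the bound was loose, with 14 within 1.5-fold and 28 within 2-fold. At an unadjusted p under 0.05, 2 were higher (6.25%, against 1.45% of all genes tested) and 0 lower. Oasl2, an oligoadenylate synthase-like gene, was measured at 6.67, 5.91, 7.06 and 6.31 CPM with AAV9-GFP and at 9.08, 6.83, 12.3 and 8.56 CPM with AAV9-Cardinal. Its log2 fold change was 0.50 (0.12 to 0.88) with an adjusted p of 1.0 by edgeR. The summed level of the list was 351, 253, 357 and 273 CPM in the AAV9-Cardinal sham mice 1 to 4, against 241, 278, 293 and 271 CPM with AAV9-GFP. Thus 2 of the 4 AAV9-Cardinal hearts lay above all AAV9-GFP hearts and the other 2 inside their range. The median was 0.11 without AAV9-Cardinal sham mouse 3 and 0.29 without mouse 2. Oasl2 and Mx1, an antiviral GTPase, were the 2 genes with an unadjusted p under 0.05 by edgeR. Mx1 was near the detection floor, at up to 0.24 CPM with AAV9-GFP and up to 0.68 CPM with AAV9-Cardinal. Its interval spanned 0, from -0.14 to 3.84 on the log2 scale, a bound of 14.4-fold. Of 12 antigen presentation genes, 11 were within 1.5-fold.

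Stress and early-response genes had wide bounds. Of 20 immediate-early genes, 4 were within 1.5-fold and 13 within 2-fold, with 18 log2 fold changes below 0 and a median of -0.18. Fos, a transcription factor of the first response to stimulation, was measured at 1.28, 1.30, 1.81 and 8.07 CPM with AAV9-GFP and at 0.72, 0.51, 1.92 and 2.72 CPM with AAV9-Cardinal. The high value again belonged to AAV9-GFP sham mouse 4, and without that mouse the median of the list was -0.02. Of 16 heat shock genes, 8 were within 1.5-fold and 10 within 2-fold, with a median of -0.18 that became 0.04 without the same mouse. Hspa1a, an inducible HSP70 gene that shares 58.8% of its 50-base stretches with Hspa1b, ranged from 4.26 to 149 CPM with AAV9-GFP and from 3.86 to 101 CPM with AAV9-Cardinal. Its range inside a group was far larger than the difference between the groups. Genes of the integrated stress response (21 tested), the circadian clock (16), cytokines (18) and the cell cycle (24) were within 2-fold in 17, 15, 11 and 10 cases. At an unadjusted p under 0.05, 2 integrated stress response genes were higher (9.52%, against 1.45% of all genes) and 0 lower, without a call. Phgdh, with the lowest p of that list, was near the detection floor, at up to 0.34 CPM with AAV9-GFP and 0.82 CPM with AAV9-Cardinal. Its log2 fold change was 2.45 (0.11 to 4.80), a bound of 27.8-fold, and 47.8% of its 50-base stretches are shared with other genes. Antioxidant genes (16 tested) and genes of atrophy and autophagy (12) were within 2-fold in all cases. Among cardiac long noncoding RNAs, 8 of 10 were within 2-fold. Malat1, an abundant nuclear RNA, was measured at 178, 163, 138 and 210 CPM with AAV9-GFP and at 137, 152, 138 and 135 CPM with AAV9-Cardinal, a log2 fold change of -0.29 with an adjusted p of 1.0 by edgeR.

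Over the 26 program lists together, 565 of 572 genes were tested. The edgeR test called 1 of them, Bub1b, while 18 (3.19%) had an unadjusted p under 0.05, 7 higher and 11 lower, against 2.59% of all genes, and 16 (2.83%) did not overlap, against 2.36%. By direction, the 11 lower genes were 1.95% against 1.14% of all genes and the 7 higher ones 1.24% against 1.45%. Of the 16 genes without overlap, 13 were lower (2.30%, against 1.16%) and 3 higher (0.531%, against 1.20%). Within 1.5-fold there were 445 (78.8%, against 74.6% of all genes) and within 2-fold 508 (89.9%, against 90.2%). Of all genes from 10 to 100 CPM, 95.5% were within 1.5-fold, so a close bound was not particular to these programs. With TAC, 94 of the same 565 genes were called higher and 121 lower, where 8.49% and 8.92% of all genes tested were called. The summed level overlapped between the sham groups in 26 of 26 lists.

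The 2 genes that passed the test with 16 mice were Bub1b and Gm15459. Bub1b (ENSMUSG00000040084), a mitotic checkpoint kinase gene on chromosome 2, had 0 counts in each AAV9-GFP sham heart. It had 23, 19, 29 and 10 counts in the AAV9-Cardinal sham hearts, or 1.04, 0.88, 1.39 and 0.65 CPM. Their mean of 0.99 CPM is at least 6.74-fold higher than the AAV9-GFP level, taken at 0.147 CPM, the highest floor (3 counts in a library) of that group. The adjusted p by edgeR was 0.00068 in the 16-mouse fit and 0.12 in the 8 sham mice alone. The gene also had between 18 and 42 counts in each of the 8 TAC hearts of both viruses, so that the AAV9-GFP sham hearts were the group that stood apart. Ccnb1, a mitotic cyclin, had an unadjusted p of 0.039 with an adjusted p of 1.0 by edgeR, the other 22 tested cell cycle genes had unadjusted p values of at least 0.05, and Bub1b shares no 50-base stretch with another gene.

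Gm15459 (ENSMUSG00000100801) is annotated as a processed pseudogene on the minus strand at chr5:5781615-5783555. It matches the main transcript of Hspa8, a constitutive HSP70 chaperone gene on chromosome 9, without gaps over all 1941 bases with 5 differing bases, an identity of 99.7%. The closest pair of differing bases is shown with 12 bases on each side, because 50-base reads that avoid such bases match both genes. The capitals mark the differing bases, C414T and C549T, with the Hspa8 base first and positions counted from 1 at the 5′ end of Gm15459. The Hspa8 stretch lies in its coding sequence and spans exons 3 and 4, and the Gm15459 stretch lies at chr5:5782995-5783154 of GRCm38.
Hspa8: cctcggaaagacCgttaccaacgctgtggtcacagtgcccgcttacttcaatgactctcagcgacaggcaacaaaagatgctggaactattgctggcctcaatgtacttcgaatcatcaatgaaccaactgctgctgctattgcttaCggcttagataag
Gm15459: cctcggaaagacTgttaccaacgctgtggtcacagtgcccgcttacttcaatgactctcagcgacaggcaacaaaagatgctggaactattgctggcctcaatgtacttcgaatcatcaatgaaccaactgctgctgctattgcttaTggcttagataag
In all, 86.8% of the 50-base stretches of Gm15459 occur in Hspa8, and 95.5% overlap Gm26825, a lincRNA annotated on the opposite strand of the same place.

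Gm15459 was measured at 152, 207, 228 and 328 CPM with AAV9-GFP and at 37.6, 32.6, 57.8 and 39.3 CPM with AAV9-Cardinal. The groups did not overlap, and the log2 fold change was -2.45 (-3.07 to -1.84) with an adjusted p of 0.0057 by edgeR with 16 mice and 0.021 with 8. Gm26825, named after its values were seen, ran the other way, at 37.9, 57.7, 64.3 and 78.9 CPM with AAV9-GFP and at 147, 146, 272 and 230 CPM with AAV9-Cardinal. Its log2 fold change was 1.73 (0.94 to 2.53) with an adjusted p of 1.0 by edgeR. The sum of the 2 genes, in contrast, overlapped between the groups, at 190, 264, 293 and 407 CPM with AAV9-GFP and at 185, 179, 330 and 270 CPM with AAV9-Cardinal. Gm15459 held 78.0% to 80.6% of that sum in the AAV9-GFP sham hearts and 14.6% to 20.4% in the AAV9-Cardinal sham hearts. The counts at this place thus differed in how they were split between the 2 strands' genes. The sum had means of 289 ± 89.8 CPM with AAV9-GFP and 241 ± 72.4 CPM with AAV9-Cardinal (exact permutation p = 0.46). No interval was computed for the sum, so a difference in number was not bounded. In TAC hearts, Gm15459 held 53.9% of the sum in AAV9-Cardinal mouse 1, 78.1% to 79.9% in the other 3 mice of that group, 32.6% in AAV9-GFP mouse 7 and 67.5% to 75.3% in the other 3. Hspa8 itself stood at 482 to 1047 CPM with AAV9-GFP and at 454 to 845 CPM with AAV9-Cardinal, with a log2 fold change of -0.26 (-0.78 to 0.25). The use of strand and the treatment of reads with several matches are not given in the sources used here, so the direction at either gene is uncertain.

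**Figure D5:**
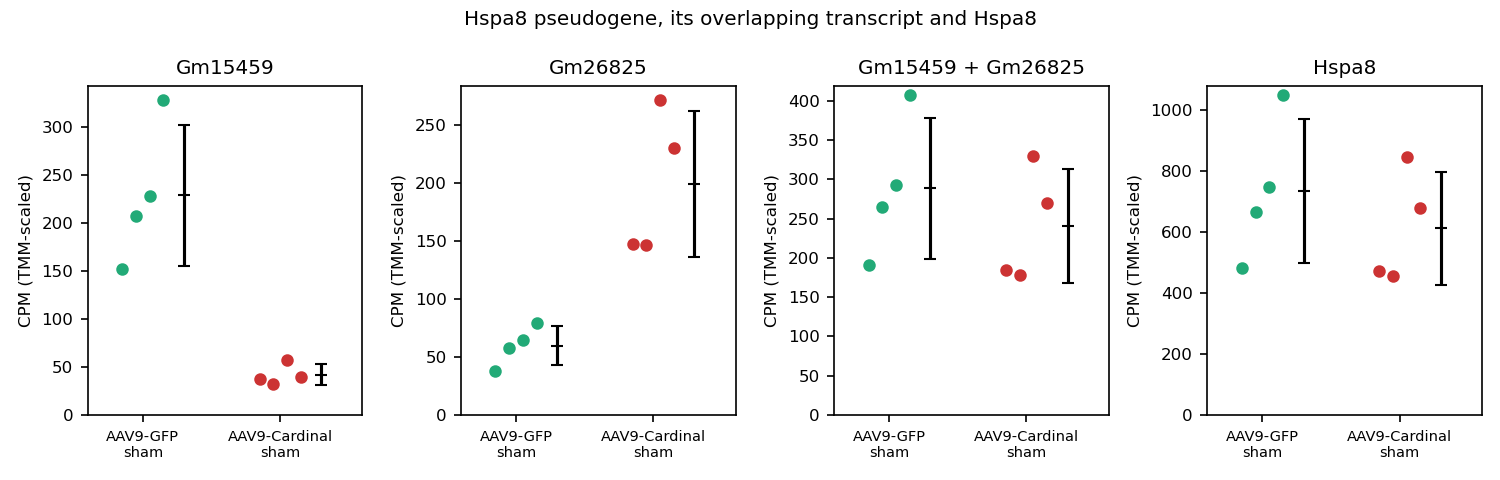
Level in each sham mouse (points; y axis, TMM-scaled CPM, from 0) of Gm15459, of Gm26825 on the opposite strand, of their sum and of Hspa8, with mean ± SD (bars, n = 4). The groups are apart for either gene, at 32.6 to 57.8 against 152 to 328 CPM for Gm15459, and overlap for the sum and for Hspa8.

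DESeq2 called 2 further genes in the sham comparison, Gm5148 and Gm18342. Gm5148 had 6.63 CPM in AAV9-Cardinal sham mouse 3 and 0 counts in the other 7 sham hearts. Gm18342, at 0 counts in all AAV9-Cardinal sham hearts, was measured at 0.61, 0.77, 0 and 0.83 CPM with AAV9-GFP, and 50.1% of its 50-base stretches are shared with other genes.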

How the data were processed

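The file deposited by the authors holds raw counts of reads for each Ensembl gene, 1 column per mouse, without normalization. The submitters' processing notes name FastQC, HISAT2 2.1.0, edgeR 3.26.1 and GRCm38, and the counting program, annotation and use of strand are not given in the sources used here. Symbols came from GENCODE M21 (55480 of 55573 genes, the other 93 kept their Ensembl identifier), and 0 columns were left unused.

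Counts were fitted in R 4.3.3 with edgeR 4.0.16 (quasi-likelihood, TMM, expression filter over the 4 groups, 16857 genes, all 16 mice) and the sham contrast was taken. Genes were called at a Benjamini-Hochberg adjusted p under 0.05. The 95% interval is the log2 fold change plus and minus the t quantile times its standard error from that fit. A gene was called bounded when its whole interval lay inside 2-fold or 1.5-fold, and a gene at 0 in a group has no interval. Exact two-sided permutation over mice (70 labelings) was run in R on log2 CPM for Cardinal, and with SciPy 1.17.1 on CPM for the sum of Gm15459 and Gm26825. A count of 3 corresponds to 0.136 to 0.195 CPM in the sham hearts, for counting error only. The labels do not say whether mice were littermates, and the chi-square per degree of freedom between 2 sham hearts was at least 4.40, so none was counted as a repeat. The method was tested on simulated data.

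Named genes were Cardinal, its neighbors and the genes the study names, every gene called by edgeR with 16 or 8 mice or by DESeq2, and in each program list the most abundant member and that with the lowest p. The widest or outermost member of a list, Mx1, Hspa1a, Hspa8, Gm26825, Kcnh2, Ndufa9, Rpl39 and Ccnb1 were named after their values were seen. Values of 1 other gene under this rule are not reported here, although all fits and gene counts include it. Members and lists were chosen with earlier results of these data known. Alternatives were DESeq2 1.42.0, limma-voom (limma 3.58.1), DESeq2 size factors, other filters, a robust spread, mitochondrially encoded genes left out, 8 mice, a replicate block and each mouse left out in turn. Recomputing the list medians under these was an addition made once results were known.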

Additional observations from a re-analysis of the deposited data

Results flagged for a closer look

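In groups of 4 mice, the highest or lowest mouse was set against the other 3, and 19 of 238 groups of values had a mouse far from the rest. Chance gives about 1 in 20 groups, which is 11.9 here, and several of the 19 share a mouse. AAV9-GFP sham mouse 4 was high for Acta2 (219 CPM, the others 39.7 to 49.1), the sum of pericyte and smooth muscle markers (845 CPM, the others 619 to 652), Col4a1 (269 CPM, the others 195 to 206), Fos (8.07 CPM, the others 1.28 to 1.81), Nrf1 (8.16 CPM, the others 6.37 to 6.39) and Il1b (0.342 CPM, the others 0).

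AAV9-Cardinal sham mouse 4 had a low total of 16441997 counts against at least 21603910 in its group, a high sum of translation factors (5704 CPM, the others 5320 to 5347) and a low sum of mesothelial markers (5.45 CPM, the others 7.95 to 8.46). AAV9-Cardinal sham mouse 3 was high for Hspa1a (101 CPM, the others 3.86 to 13.2) and Gm5148 (6.63 CPM, the others 0). AAV9-Cardinal sham mouse 1 was high for H2-Aa (22.5 CPM), Usp18 (2.67 CPM) and Il1b (0.136 CPM), and mouse 2 was low for the sum of skeletal muscle markers (998 CPM, the others 1048 to 1056). In AAV9-GFP sham hearts, mouse 1 was alone in having counts of adipocyte markers (0.236 CPM) and Gm26128 (0.0473 CPM), mouse 2 of Gm12293 (0.0960 CPM), and mouse 3 of Phgdh (0.343 CPM).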

How the results depend on the processing

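The 2 calls became 4 with DESeq2, 1 with the replicate block, 3 with the replicate block in the 8 sham mice and 1 to 3 when a mouse was left out. Under limma-voom, DESeq2 size factors, both filters, the robust spread and the fit without mitochondrially encoded genes the same 2 genes were called. The 8 sham mice also gave 2 calls, of which 1 was shared, with Bub1b lost (adjusted p by edgeR 0.12) and Cardinal gained. Without AAV9-Cardinal sham mouse 1, 2 or 4 the call of Gm15459 was lost, with adjusted p by edgeR of 0.057, 0.055 and 0.056, while Bub1b was called without any 1 mouse. Bub1b lost its call with the replicate block (adjusted p by edgeR 0.17). Same-numbered sham mice deviated together with correlations of 0.10, -0.04, 0.07 and 0.09, so the numbers were not taken as pairs. The counts bounded within 2-fold (14898 to 15299 when a mouse was left out) and 1.5-fold (11867 to 12646), and those of program genes within 1.5-fold (430 to 455), stayed within 1.5 times the reported counts under every alternative. The shares of tested genes moved with the filter, which sets how many genes are tested. Within 2-fold they were 52.5% without a filter and 95.1% with at least 1 CPM in at least 4 mice. Within 1.5-fold they were 41.8% and 82.0%, and 69.2% with DESeq2. The log2 fold change of Cardinal passed the edgeR threshold at 2.70 in the 8 sham mice and at 2.69 there with the replicate block. When a mouse was left out it was 2.55 to 2.82, and it passed at 2.70 without AAV9-Cardinal TAC mouse 1. DESeq2 gave no adjusted p for it. When a mouse was left out, the log2 fold change of Gm5148 was between 0 (without AAV9-Cardinal sham mouse 3) and 8.61. The medians of ribosomal protein, respiratory chain, interferon-stimulated and immediate-early genes kept their sign under every alternative. In all, 14 of 26 list medians kept their sign throughout and 12 turned under at least 1 alternative. Of these, heat shock proteins turned without AAV9-GFP sham mouse 4, and the other 11 had medians within 0.058 of 0, among them sarcomere, fatty acid oxidation, matrix and actin cytoskeleton genes. Of 1962 recomputed outer bounds of 76 genes, 23 moved by more than 1 SD between mice. Depth and group size were not varied. The cause of these changes was not tested.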
